A study of Saccharomyces cerevisiae with 4 samples.

Results

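The genes described here are the 56 *RPS* genes of budding yeast, which encode the proteins of the small (40S) subunit of the cytosolic ribosome. They were taken by systematic name from the count table, from *RPS0A* (YGR214W) to *RPS31* (YLR167W), with both copies where a gene is duplicated. All 56 were among the 6692 genes of the table, and all 56 passed the minimum of 0.5 CPM (counts for every 1000000 counts on genes in a library) in at least 2 libraries that left 5959 genes for testing. They comprise 24 duplicated pairs, named by a final A or B, and 8 single-copy genes, such as *RPS2*, *RPS3* and *RPS15*.

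The libraries came from 2 cultures of the *sis2Δ* strain (genotype BY4741 with *SIS2* replaced by the kanMX cassette) and 2 cultures of the BY4741 wild type, letters A and B in each strain. *SIS2* encodes a subunit of the enzyme that decarboxylates phosphopantothenoylcysteine in coenzyme A synthesis, and its product also inhibits the phosphatase Ppz1. All 4 cultures used 15 ml of synthetic complete medium with 2% glucose and were harvested in mid-log phase. Total RNA was made into stranded libraries by polyA capture and sequenced with paired reads of 100 bases. BY4741 is a haploid laboratory strain, and the sources used here do not say whether the deletion strain was 1 clone. The libraries held between 19001619 and 28069619 counts on genes. *SIS2* had 6 and 9 counts in the *sis2Δ* libraries, against 3991 and 2208 counts in the wild-type libraries, as their labels say. The *sis2Δ* libraries differed from each other more than the wild-type libraries did, with 55.3 as the chi-square divided by its degrees of freedom for *sis2Δ* A and B, against 18.8 for wild type A and B.

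Ribosomal proteins are made in equal numbers per ribosome, and in growing yeast their mRNAs are among the most abundant of the cell. Their genes are transcribed together, with Rap1 bound at many of their promoters and Fhl1, Ifh1 and Sfp1 acting there in response to nutrients through the TOR and protein kinase A pathways. Most *RPS* genes are pairs kept from an ancient genome duplication whose copies encode the same or nearly the same protein. An intron lies in the coding region of 36 of the 56 *RPS* genes. The comparison asked whether *RPS* transcript levels differed between *sis2Δ* and wild-type cells, and whether the copies of a pair moved together.

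No *RPS* gene passed the threshold between the strains. Fitted log2 fold changes (*sis2Δ* over wild type) lay between -0.47 for *RPS21A* and 0.27 for *RPS9A*, with standard errors between 0.11 and 0.29. They were below 0 for 49 genes and above 0 for 7, with a median of -0.185, beside a median of -0.005 over all 5959 genes tested. The lower levels were found in library *sis2Δ* A, which had the lowest CPM of the 4 libraries for 49 of the 56 genes (87.5%), as it did for 34.6% of all tested genes. Library *sis2Δ* B lay between or above the wild-type libraries for 25 and 17 of the genes.

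With the quasi-likelihood test of edgeR and p-values adjusted over all tested genes, 0 of the 56 reached the threshold of 0.05, whereas 6.07% of all tested genes did. An unadjusted p under 0.05 was found for 4 of them (3 lower and 1 higher), beside 21.0% of all tested genes. With limma-voom 0 were called and 4 had an unadjusted p under 0.05, beside 5.92% and 20.8% of all tested genes in that fit. With DESeq2 0 were called and 6 had an unadjusted p under 0.05, beside 6.86% and 18.7% of all tested genes. The smallest adjusted p was 0.0974, for *RPS28B*. The *sis2Δ* and wild-type libraries did not overlap for 16 genes (28.6%), beside 53.1% of all tested genes. Of these, 14 were lower in both *sis2Δ* libraries, a pattern shown by 28.6% of all tested genes, and 2 were higher, a pattern shown by 24.5%. The plot of fitted log2 fold changes shows the 95% confidence intervals, of which 3 lay below 0 and 1 above.

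**Figure D1:**
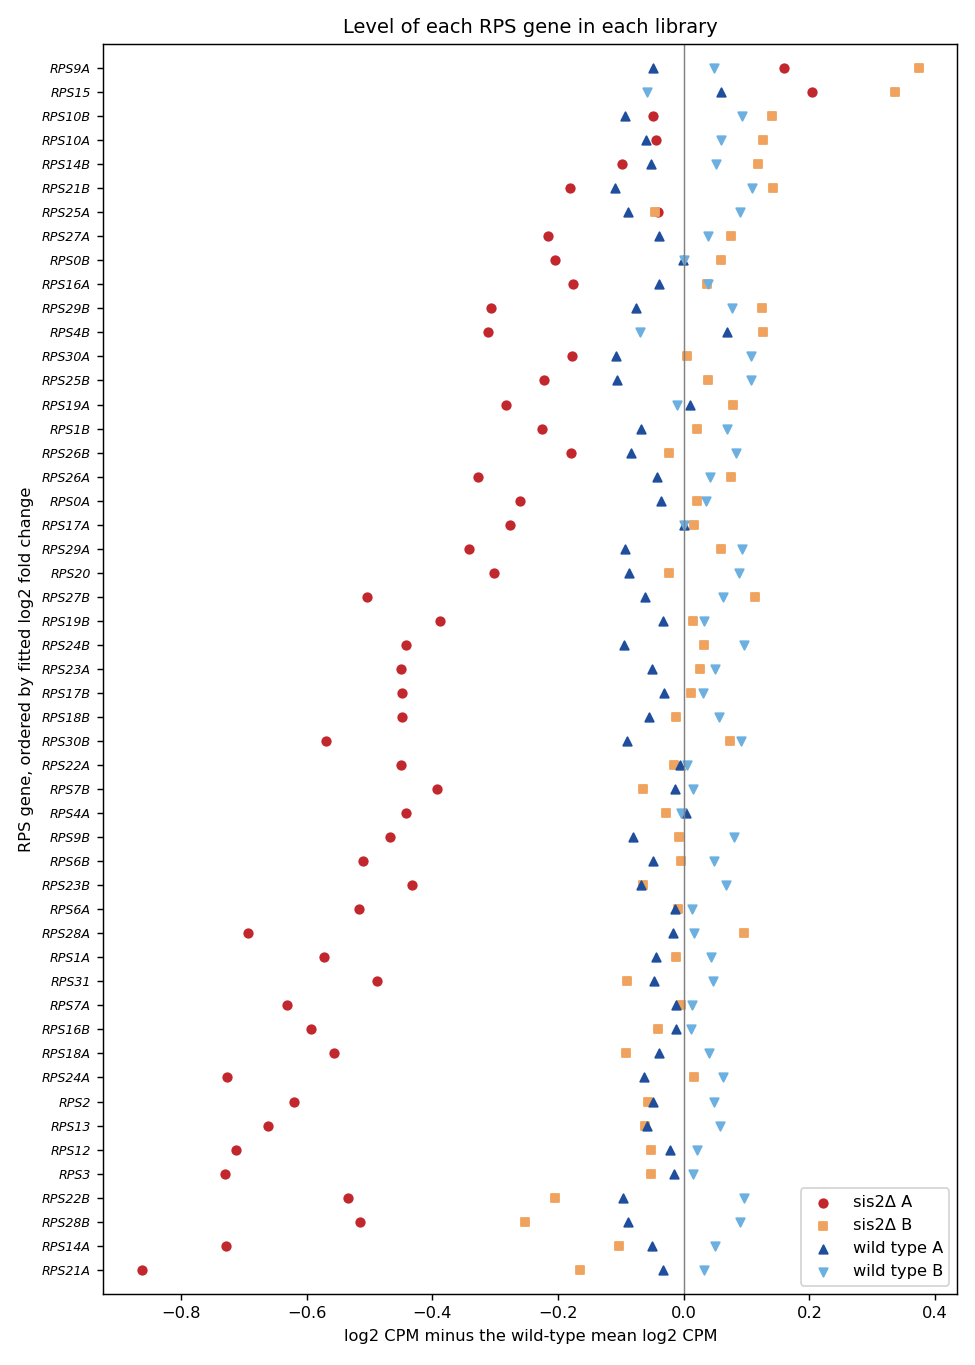
Level of 51 *RPS* genes (rows, ordered by fitted log2 fold change) in the 2 *sis2Δ* and 2 wild-type libraries, as log2 CPM minus the mean log2 CPM of the wild-type libraries, 1 point per library. The points of *sis2Δ* A are leftmost in 46 rows, and those of *sis2Δ* B lie among or right of the wild-type points in most rows.

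**Figure D2:**
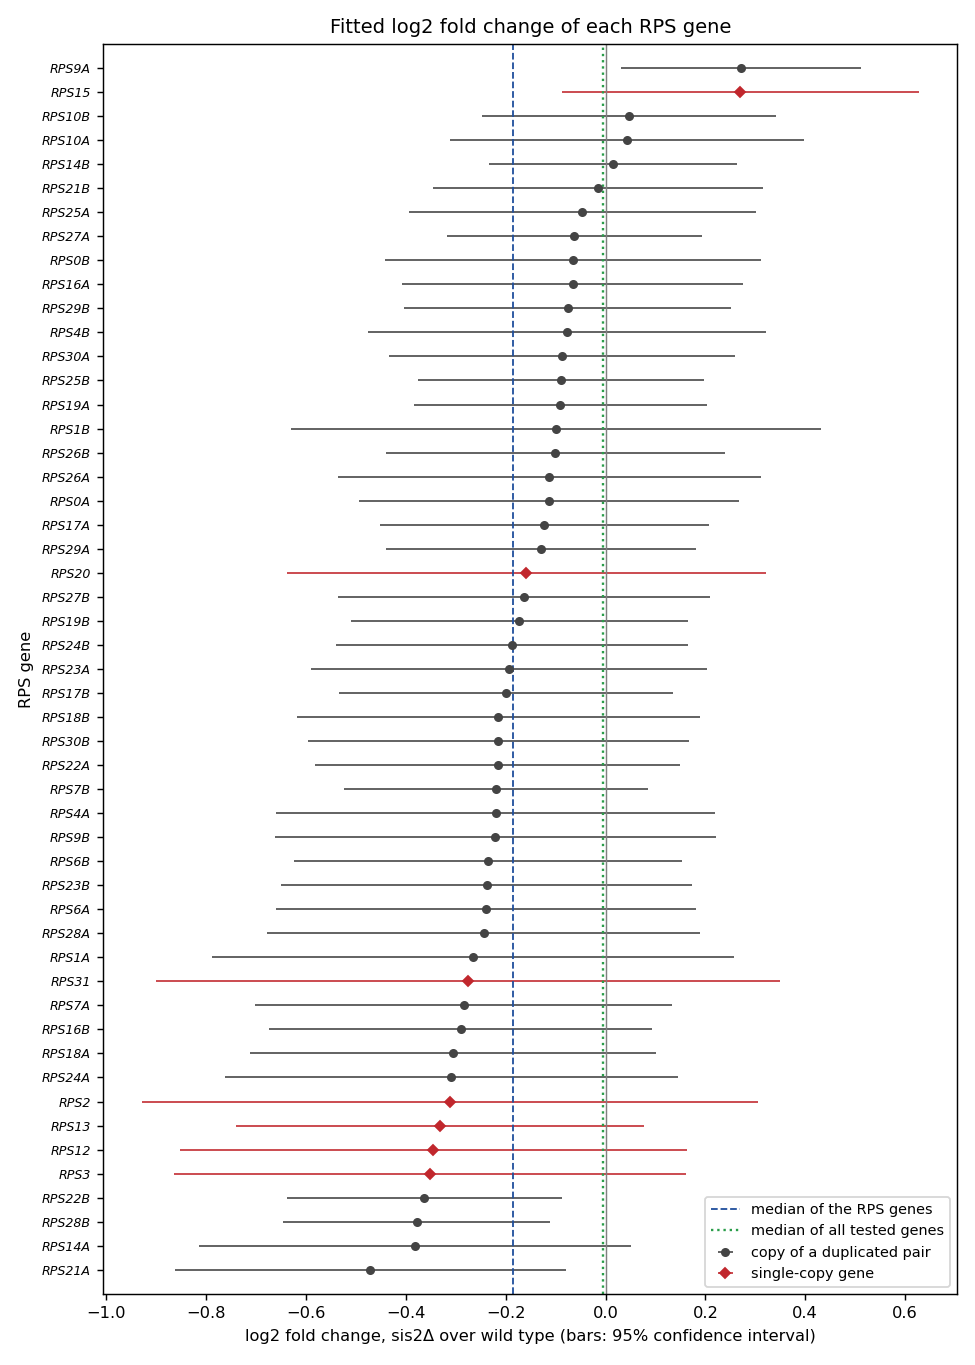
Fitted log2 fold change (*sis2Δ* over wild type) of 51 *RPS* genes, with 95% confidence intervals as bars; circles are copies of duplicated pairs and diamonds are single-copy genes. The dashed line marks the median of all 56 *RPS* genes at -0.185 and the dotted line the median of all tested genes at -0.005.

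The summed level of the 56 genes, as CPM scaled by the trimmed mean of M-values (TMM, which sets libraries to a common scale by the bulk of their genes), was 40837 in *sis2Δ* A and 54267 in *sis2Δ* B, against 52470 in wild type A and 55599 in wild type B. *sis2Δ* A was the lowest library, *sis2Δ* B lay between the wild-type libraries, and the strains overlapped. The means were 47552 ± 9496 CPM in *sis2Δ* and 54035 ± 2213 CPM in wild type (SD, n = 2 each), a log2 ratio of -0.184. An exact two-sided permutation test over the 4 libraries gave p = 0.667, where the smallest p that 2 against 2 allows is 0.333. As a share of all counts, *RPS* genes took 4.38% and 5.24% in *sis2Δ* A and B, against 5.09% and 5.53% in wild type A and B, and no 95% Wilson interval of these shares was wider than 0.021 percentage points. Such intervals hold the error of counting reads within a library alone, and not the spread between cultures. In RNA from whole cultures, less *RPS* mRNA in each cell cannot be told apart from fewer cells with high *RPS* levels.

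Within the *sis2Δ* strain, 55 of the 56 genes were lower in library A than in library B, with a median log2 difference (A minus B) of -0.402 and a range from -0.789 to 0.005. Over all tested genes that median was -0.013. The wild-type libraries differed less, with a median log2 difference (A minus B) of -0.097 over the *RPS* genes and a range from -0.219 to 0.188. In wild type too, 49 of the 56 genes were lower in library A than in library B, beside 3016 of the 5959 tested genes. *RPS28A*, the major copy of the pair that encodes Rps28, showed the widest gap, at 311 CPM in *sis2Δ* A and 537 CPM in *sis2Δ* B, against 496 and 508 CPM in wild type A and B. *RPS25A* was the exception, at 918 and 915 CPM in *sis2Δ* A and B, against 888 and 1005 CPM in wild type. The TMM factors were 1.07 and 0.966 for *sis2Δ* A and B, against 0.970 and 0.994 for wild type A and B, so *sis2Δ* A also stood apart in its scaling. Whether the library itself accounts for its low *RPS* levels was not tested.

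**Figure D3:**
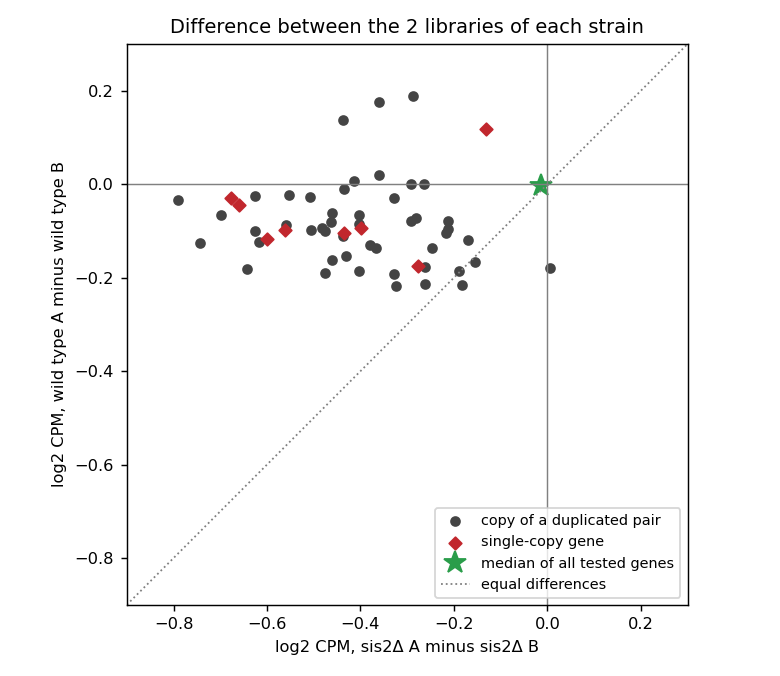
Log2 CPM difference between the A and B libraries of each *RPS* gene within *sis2Δ* (horizontal axis) and within wild type (vertical axis), 1 point per gene. All but 1 of the 56 points lie left of 0, to -0.789, while the vertical spread runs from -0.219 to 0.188; the star marks the median of all tested genes.

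The result for the family turned on which *sis2Δ* library was used. Without *sis2Δ* A, the median log2 fold change of the *RPS* genes was 0.03, with 21 of 56 genes below 0, and edgeR called 0 of them (4 with an unadjusted p under 0.05), beside 3.21% of the genes tested in that fit. Without *sis2Δ* B, the median was -0.44, 54 genes were below 0, and 31 were called, each of them lower, beside 9.29% of the genes tested in that fit called lower. The naming rule given with the processing does not include *RPS12*, which is described below. Among the genes it picked, the lowest log2 fold changes in that fit were as follows. They were those of *RPS21A* (-0.861), *RPS14A* (-0.728), *RPS3* (-0.728), *RPS16B* (-0.593), *RPS22B* (-0.536), *RPS28B* (-0.516), *RPS31* (-0.488) and *RPS9B* (-0.469). Leaving out wild type A or B gave medians of -0.23 and -0.12, beside 0.002 and 0.005 over all genes tested in those fits. With a library left out, its strain has 1 library, which is assumed to vary like the libraries of the other strain.

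**Figure D4:**
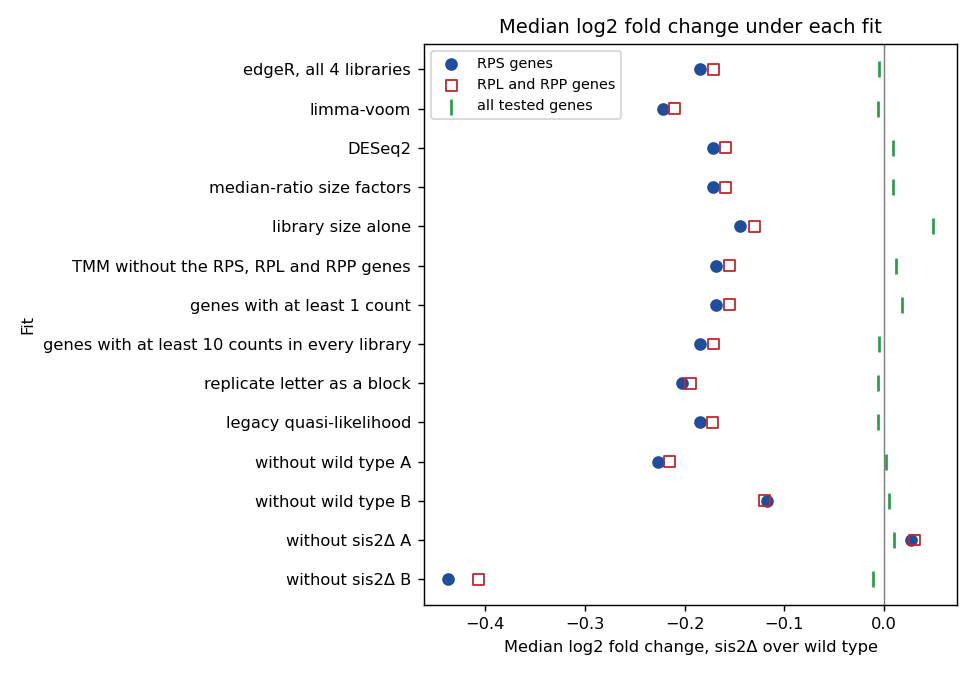
Median log2 fold change (*sis2Δ* over wild type) of the *RPS* genes (filled circles), the *RPL* and *RPP* genes (open squares) and all tested genes (ticks) under each fit. The *RPS* median is -0.185 with all 4 libraries, 0.03 without *sis2Δ* A and -0.44 without *sis2Δ* B.

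The genes of the large subunit gave a similar picture. Of the 81 *RPL* and *RPP* genes (60S proteins and the acidic stalk proteins), 0 were called by edgeR (1 with an unadjusted p under 0.05), 74 had log2 fold changes below 0, and the median was -0.172. The *sis2Δ* A library had the lowest level for 77 of them, and their summed CPM was 53473 and 71270 in *sis2Δ* A and B, against 70323 and 72462 in wild type A and B. *sis2Δ* A was again the lowest library, with *sis2Δ* B between the wild-type libraries. Among the 2263 tested genes with a mean over 100 CPM, the median log2 fold change was -0.026, and *sis2Δ* A was the lowest library for 43.5%.

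The 5 genes with the lowest log2 fold changes were *RPS21A*, *RPS14A*, *RPS28B*, *RPS22B* and *RPS3*. *RPS21A* (YKR057W, R64 chrXI:551657-552242, plus strand, 2 exons) encodes a protein of the 40S body that assembles next to Rps0. Its level was 216 and 350 CPM in *sis2Δ* A and B, against 383 and 401 CPM in wild type A and B. Both *sis2Δ* libraries were below both wild-type libraries, but most of the difference came from *sis2Δ* A. The log2 fold change was -0.47 (SE 0.18, 95% confidence interval -0.86 to -0.08, adjusted p = 0.157 by edgeR). *RPS21B* (YJL136C), the copy with more counts, had 502 and 628 CPM in *sis2Δ* A and B, against 528 and 614 CPM in wild type A and B, and its *sis2Δ* libraries lay on either side of the wild type (log2 fold change -0.01, SE 0.15).

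The coding sequences of these copies, with the intron left out, are shown because the pair had the largest shift in the shares of its copies. Capitals mark the 24 of 264 bases that differ between them, and the longest stretch without a difference is 38 bases, shorter than a read of 100 bases. *RPS21A* lies at chrXI:551657-552242, plus strand and *RPS21B* at chrX:156550-157273, minus strand of R64.
RPS21A: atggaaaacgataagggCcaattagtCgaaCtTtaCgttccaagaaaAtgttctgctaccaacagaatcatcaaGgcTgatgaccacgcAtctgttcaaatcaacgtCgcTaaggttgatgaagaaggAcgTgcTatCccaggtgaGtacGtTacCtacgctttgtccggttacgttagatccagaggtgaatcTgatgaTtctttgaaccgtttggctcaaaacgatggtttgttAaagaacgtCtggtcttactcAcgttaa
RPS21B: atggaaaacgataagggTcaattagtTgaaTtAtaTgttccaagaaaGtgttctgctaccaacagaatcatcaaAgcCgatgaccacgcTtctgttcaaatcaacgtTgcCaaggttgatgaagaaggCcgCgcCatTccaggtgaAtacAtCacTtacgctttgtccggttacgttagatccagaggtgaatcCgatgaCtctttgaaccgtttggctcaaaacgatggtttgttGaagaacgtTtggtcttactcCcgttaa

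*RPS28B* (YLR264W) encodes the minor copy of Rps28, a small protein near the mRNA exit of the 40S subunit, and its mRNA is known to be destabilized when Rps28 is in excess. It had 46.1 and 55.3 CPM in *sis2Δ* A and B, against 61.9 and 70.0 CPM in wild type A and B. Both *sis2Δ* libraries were below both wild-type libraries (log2 fold change -0.38, SE 0.12, adjusted p = 0.0974 by edgeR). *RPS28A* (YOR167C), given above, overlapped between the strains (log2 fold change -0.24, SE 0.20). The coding sequences of this pair, which hold no intron, differ at 24 of 204 bases, shown in capitals, with at most 35 bases between differences. *RPS28A* lies at chrXV:648804-649007, minus strand and *RPS28B* at chrXII:673131-673334, plus strand of R64. They are printed because *RPS28B* had the smallest adjusted p of the family and is the minor copy of its pair.
RPS28A: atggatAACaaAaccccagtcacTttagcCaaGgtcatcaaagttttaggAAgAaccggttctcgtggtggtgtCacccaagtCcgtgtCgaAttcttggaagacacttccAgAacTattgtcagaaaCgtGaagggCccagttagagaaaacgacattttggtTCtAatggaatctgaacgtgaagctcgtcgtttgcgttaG
RPS28B: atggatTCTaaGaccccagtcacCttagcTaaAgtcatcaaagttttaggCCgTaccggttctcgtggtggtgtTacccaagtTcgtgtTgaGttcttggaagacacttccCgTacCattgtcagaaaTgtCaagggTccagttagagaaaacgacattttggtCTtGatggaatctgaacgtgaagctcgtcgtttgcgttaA

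*RPS22B* (YLR367W) is the minor copy for Rps22, a protein of the 40S body, and its unspliced transcript is known to be cut within an intron by the RNase III Rnt1. The level was 132 and 166 CPM in *sis2Δ* A and B, against 179 and 204 CPM in wild type A and B, lower in both *sis2Δ* libraries (log2 fold change -0.36, SE 0.13, adjusted p = 0.121 by edgeR). The small nucleolar RNA gene *SNR44* overlaps *RPS22B* on the same strand, and whether its reads entered these counts was not tested. *RPS14A* (YCR031C), the major copy for Rps14 of the 40S platform, had 608 and 937 CPM in *sis2Δ* A and B, against 972 and 1042 CPM in wild type A and B (log2 fold change -0.38, SE 0.20, adjusted p = 0.296). *RPS3* (YNL178W), a single-copy gene for a protein at the mRNA entry of the subunit, had 1040 and 1662 CPM in *sis2Δ* A and B, against 1706 and 1742 CPM in wild type A and B (log2 fold change -0.35, SE 0.24, adjusted p = 0.420). For *RPS14A* and *RPS3*, *sis2Δ* A stood far below the other 3 libraries, and *sis2Δ* B was close below wild type A.

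At the other end, *RPS9A*, *RPS15* and *RPS10B* were among the 5 genes with the highest log2 fold changes. *RPS9A* (YPL081W) encodes the minor copy of Rps9, a protein of the 40S body near the mRNA entry, and splicing of its transcript is known to be repressed by Rps9. It had 93.5 and 108 CPM in *sis2Δ* A and B, against 80.9 and 86.5 CPM in wild type A and B, higher in both *sis2Δ* libraries (log2 fold change 0.27, SE 0.11, adjusted p = 0.187 by edgeR). Its partner *RPS9B* (YBR189W) had 995 and 1368 CPM in *sis2Δ* A and B, against 1300 and 1454 CPM in wild type A and B, with *sis2Δ* A lowest and *sis2Δ* B between the wild-type libraries (log2 fold change -0.22, SE 0.20). *RPS15* (YOL040C), a single-copy gene for a head protein needed for export of pre-40S particles from the nucleus, had 1042 and 1141 CPM in *sis2Δ* A and B, against 942 and 868 CPM in wild type A and B. Its libraries did not overlap between the strains, and its log2 fold change was 0.27 (SE 0.16, adjusted p = 0.369). It was the only single-copy gene of the 8 above 0.

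*RPS10B* (YMR230W), a copy for Rps10 of the subunit's head, had 467 and 533 CPM in *sis2Δ* A and B, against 453 and 515 CPM in wild type A and B, and overlapped between the strains (log2 fold change 0.05, SE 0.14).

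The remaining genes lay between these ends. By copy number, the 8 single-copy genes had a median log2 fold change of -0.294 and a range from -0.352 to 0.27, and the 48 duplicated genes a median of -0.168 and a range from -0.471 to 0.271. *RPS12* (YOR369C), which encodes a protein of the beak of the 40S head, belongs to the single-copy genes, at 1040 and 1643 CPM in *sis2Δ* A and B, against 1678 and 1730 CPM in wild type A and B. The 36 genes with an intron in the coding region had a median of -0.19 and the 20 without a median of -0.17. The 10 genes with coding regions of at most 300 bases had a median of -0.146, and the other 46 a median of -0.19. In each of these groups 0 genes were called, and *sis2Δ* A was the lowest library for between 84.8% and 100% of the genes.

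Per kilobase of coding sequence, mean levels over the 4 libraries spanned from 155 CPM per kilobase for *RPS9A* to 6834 CPM per kilobase for *RPS31*. The 3 highest were *RPS31*, whose product is made as a fusion with ubiquitin, *RPS20* (YHL015W), which encodes a head protein, and *RPS30A* (YLR287C-A), the major copy for Rps30. *RPS31* had 5333 and 7031 CPM per kilobase in *sis2Δ* A and B, against 7244 and 7726 CPM per kilobase in wild type A and B. *RPS20* had 4324 and 5243 CPM per kilobase in *sis2Δ* A and B, against 5017 and 5663 CPM per kilobase in wild type A and B. For *RPS30A* the values were 3917 and 4444 CPM per kilobase in *sis2Δ* A and B, against 4109 and 4771 CPM per kilobase in wild type A and B. *sis2Δ* A was the lowest library for all 3, and *sis2Δ* B lay between the wild-type libraries for *RPS20* and *RPS30A* and below both for *RPS31*. Their log2 fold changes were -0.28 (SE 0.29), -0.16 (SE 0.22) and -0.09 (SE 0.16) in that order.

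The 3 lowest were *RPS9A*, *RPS14B* and *RPS28B*, each the minor copy of a pair. *RPS9A* had 157 and 183 CPM per kilobase in *sis2Δ* A and B, against 136 and 146 CPM per kilobase in wild type A and B. *RPS14B* (YJL191W), whose splicing is known to be repressed by Rps14, had 145 and 168 CPM per kilobase in *sis2Δ* A and B, against 150 and 161 CPM per kilobase in wild type A and B. *RPS28B* had 226 and 271 CPM per kilobase in *sis2Δ* A and B, against 304 and 343 CPM per kilobase in wild type A and B. These minor copies, for which feedback by the encoded protein is known, lay on different sides of 0, with log2 fold changes of 0.27 (SE 0.11), 0.01 (SE 0.11) and -0.38 (SE 0.12).

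The share of a pair's counts on the A copy gives a measure within a library that does not depend on scaling between libraries. Averaged over the 4 libraries it lay between 6.85% for *RPS9* and 93% for *RPS14*, with 12 of the 24 pairs between 40% and 60%, and the A copy had more counts in 15. The widest 95% Wilson interval of any single share was 1.97 percentage points. The mean share differed between *sis2Δ* and wild type by a median of 1.45 percentage points in size, and by less than 2 points in 17 of the 24 pairs. The shares did not overlap between the strains in 10 pairs, with the A share higher in 3 and lower in 7. The same was found in 17 of the 35 *RPL* and *RPP* pairs (48.6%). *sis2Δ* A was the library farthest from the mean of the others in 14 of the 24 pairs, *sis2Δ* B in 2, wild type A in 3 and wild type B in 5.

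**Figure D5:**
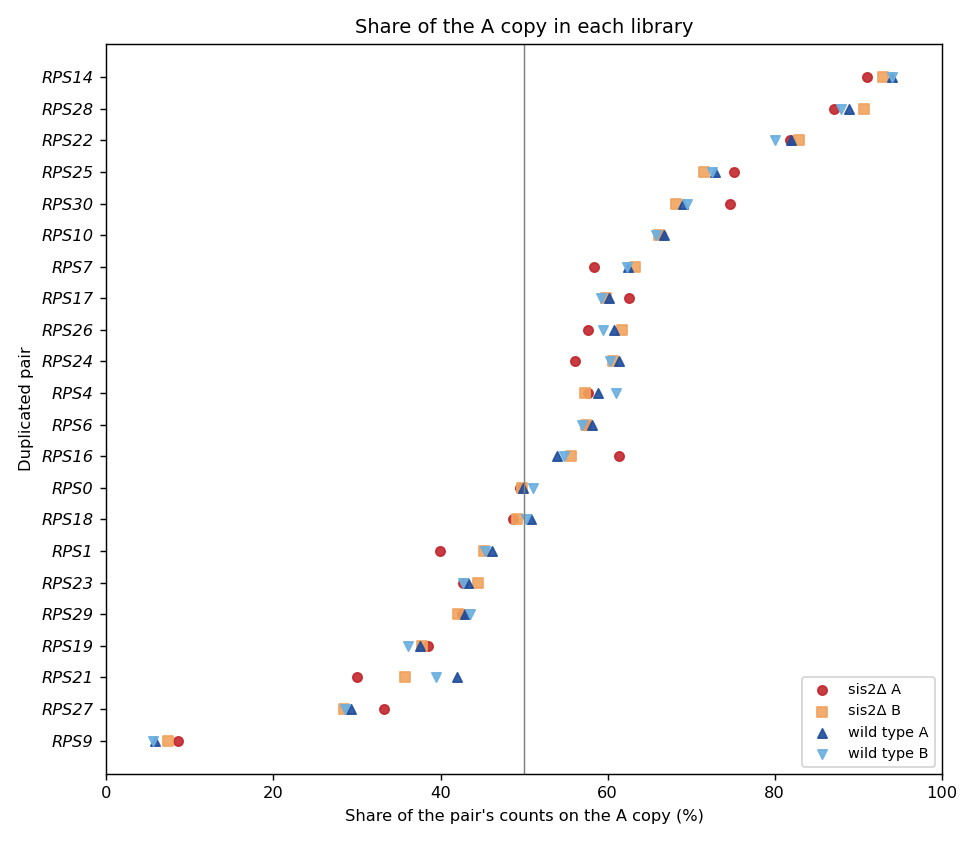
Counts on the A copy as a percentage of the counts on both copies, for 22 duplicated *RPS* pairs (rows, ordered by the mean share) in the 2 *sis2Δ* and 2 wild-type libraries. Shares run from under 10% for *RPS9* to over 90% for *RPS14*, and the widest range within a row is 12 points, for *RPS21*.

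Copies differed most in log2 fold change in the pairs *RPS9*, *RPS21*, *RPS14* and *RPS16*. The share of *RPS21A* was 30% (95% Wilson interval 29.3 to 30.8) and 35.8% (35.2 to 36.4) in *sis2Δ* A and B, against 42% (41.4 to 42.7) and 39.5% (38.8 to 40.2) in wild type A and B. Both *sis2Δ* shares were lower, by 7.87 points on average, and the libraries of each strain also differed from each other beyond counting error. The share of *RPS9A* was 8.59% (8.23 to 8.97) and 7.34% (7.08 to 7.61) in *sis2Δ* A and B, against 5.86% (5.62 to 6.1) and 5.62% (5.36 to 5.89) in wild type A and B, higher in both *sis2Δ* libraries. *RPS14A* took 91% (90.5 to 91.4) and 93% (92.7 to 93.3) in *sis2Δ* A and B, against 94% (93.7 to 94.2) and 94% (93.6 to 94.3) in wild type A and B, lower in both *sis2Δ* libraries. *RPS14B* itself had 60.4 and 70.2 CPM in *sis2Δ* A and B, against 62.4 and 67.0 CPM in wild type A and B, and overlapped between the strains. The share of *RPS16A* was 61.4% (60.8 to 62.0) and 55.6% (55.1 to 56.1) in *sis2Δ* A and B, against 53.9% (53.4 to 54.3) and 54.8% (54.2 to 55.4) in wild type A and B. It was higher in both *sis2Δ* libraries, with *sis2Δ* A far from the other 3.

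*RPS16A* (YMR143W) and *RPS16B* (YDL083C) encode Rps16, a head protein whose tail reaches the P site. *RPS16A* had 767 and 889 CPM in *sis2Δ* A and B, against 843 and 890 CPM in wild type A and B (log2 fold change -0.07, SE 0.16), and *RPS16B* had 483 and 708 CPM in *sis2Δ* A and B, against 722 and 734 CPM in wild type A and B (log2 fold change -0.29, SE 0.18). *sis2Δ* A was the lowest library for both copies, and the gap was wider for *RPS16B*. At the read length of 100 bases, 20 of the 24 pairs share no stretch of coding sequence within an exon with another place in the genome. The exceptions included *RPS4* (13.5% of the stretches), *RPS24* (17.3%) and *RPS6* (54%), whose counts could be split between copies by the counting, and whose separate values are uncertain. *RPS6A* and *RPS6B* are identical over 311 bases.

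Upstream sequences were searched on both strands over 500 bases before the start codon for ACCCNNACA, a pattern of Rap1 sites, and for GACGCA, a pattern of Fhl1 sites. The first was found for 18 of the 56 *RPS* genes (32.1%), 44.4% of the *RPL* and *RPP* genes and 5.47% of all protein-coding genes. The second was found for 6 *RPS* genes (10.7%), 18.5% of the *RPL* and *RPP* genes and 10.9% of all protein-coding genes. The median log2 fold change was -0.209 for the 18 genes with the first pattern and -0.178 for the 38 without it. Of the 4 *RPS* genes with 2 matches or more (0.283% of all protein-coding genes hold that many), 3 are shown as examples of the matched letters, and nothing is read from them about levels. Each is given 5′ to 3′ on the strand of its gene, with the matches, on either strand, in capitals. In R64 they lie at chrXIII:551518-551641, plus strand (*RPS16A*), chrXV:505294-505341, plus strand (*RPS7A*) and chrIV:308131-308226, minus strand (*RPS16B*). A match describes the letters only and is not evidence of binding.
RPS16A: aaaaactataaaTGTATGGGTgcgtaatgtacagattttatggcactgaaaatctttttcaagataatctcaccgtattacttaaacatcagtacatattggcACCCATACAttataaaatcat
RPS7A: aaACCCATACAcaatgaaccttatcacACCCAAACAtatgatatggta
RPS16B: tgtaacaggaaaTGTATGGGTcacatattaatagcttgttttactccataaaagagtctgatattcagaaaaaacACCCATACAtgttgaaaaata

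For most genes that act on the family *sis2Δ* A was not the lowest library, as for most tested genes. Of 7 genes for transcription of ribosomal protein genes (*RAP1*, *FHL1*, *IFH1*, *CRF1*, *SFP1*, *HMO1* and *SCH9*), 0 were called by edgeR (2 with an unadjusted p under 0.05), all 7 log2 fold changes were above 0, and the median was 0.109. Of all tested genes, 21.0% had such a p and 49.0% a log2 fold change above 0. Whether these 7 genes differ from those shares was not tested. *sis2Δ* A was the lowest library for 0 of these 7 genes, beside 34.6% of all tested genes. *RAP1*, the factor named above, had 114 and 112 CPM in *sis2Δ* A and B, against 94.4 and 81.5 CPM in wild type A and B, without overlap (log2 fold change 0.36, SE 0.11, adjusted p = 0.0788). *IFH1*, the coactivator of Fhl1, had 155 and 133 CPM in *sis2Δ* A and B, against 117 and 112 CPM in wild type A and B (log2 fold change 0.33, SE 0.11, adjusted p = 0.105). *RAP1* and *IFH1* had the highest log2 fold changes of this list. Those of *CRF1* (0.19), *SCH9* (0.11), *FHL1* (0.09), *HMO1* (0.09) and *SFP1* (0.01) were closer to 0.

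Of 14 genes for 40S assembly factors and chaperones, 1 was called higher and 0 lower, which is near the 6.07% of all tested genes called, 9 log2 fold changes were above 0, and the median was 0.091. *sis2Δ* A was the lowest library for 2 of the 14, beside 34.6% of all tested genes. The gene called was *ENP1*, which encodes a factor of early and cytoplasmic pre-40S particles. It had 102 and 104 CPM in *sis2Δ* A and B, against 77.4 and 69.7 CPM in wild type A and B, higher in both *sis2Δ* libraries (log2 fold change 0.48, SE 0.11, adjusted p = 0.0189 by edgeR). Without wild type B its adjusted p was 0.157, and under the other alternatives it lay between 0.000441 and 0.0407. *TSR1*, a late assembly factor, had 186 and 177 CPM in *sis2Δ* A and B, against 156 and 149 CPM in wild type A and B (log2 fold change 0.25, SE 0.10, adjusted p = 0.190). The lowest log2 fold changes of the 14 were those of *DIM1* (-0.17) and *TSR3* (-0.11). Of 2 genes for other proteins on the ribosome, *ASC1*, which encodes the RACK1 protein of the 40S head, had 1073 and 1671 CPM in *sis2Δ* A and B, against 1823 and 1837 CPM in wild type A and B (log2 fold change -0.42, SE 0.24, adjusted p = 0.335). *STM1*, which encodes a protein that holds idle ribosomes together, had 1435 and 1779 CPM in *sis2Δ* A and B, against 1712 and 1528 CPM in wild type A and B (log2 fold change -0.01, SE 0.21). *ASC1* was lowest in *sis2Δ* A by a wide margin, and *STM1*, also lowest there, overlapped between the strains.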

How the data were processed

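PolyA RNA of 2 *sis2Δ* and 2 BY4741 cultures was sequenced. Per the submitters' processing notes and the study's methods, the authors used cutadapt 3.7 for trimming, STAR 2.7.8a for mapping to R64 and featureCounts 2.0.1 for counting, with the reverse-stranded setting. The deposited counts are raw read counts per gene for 6692 genes. How reads with several places were counted is not given in the sources used here. A second deposited table holds the authors' limma (3.48.0) fold changes and p-values and was not used.

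Strain and letter came from the labels, where the last letter of 1 *sis2Δ* label is a Greek beta, taken as B. Of the markers deleted in BY4741, *LEU2* had 1 count in *sis2Δ* B, and otherwise *URA3*, *MET17* and *LEU2* had 0 counts. The study describes the cultures as independent. Counts were fitted in R 4.3.3 with edgeR 4.0.16 (quasi-likelihood test, TMM scaling, minimum of 0.5 CPM in 2 or more libraries, Benjamini-Hochberg adjustment, threshold 0.05, no covariates), after the fits were tested on simulated data. Levels are TMM-scaled CPM. Depth was between 19001619 and 28069619 counts per library. The p-values rest on the spread between 2 cultures a strain, moderated for each gene by the spread over all tested genes.

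Alternatives were limma-voom (limma 3.58.1), DESeq2 1.42.0, median-ratio size factors, library size alone, TMM without ribosomal protein genes, genes with at least 1 count or at least 10 counts in every library, a block for the letter, the legacy quasi-likelihood fit, and each library left out. The labels do not say whether the letters pair the samples. Sequences and coordinates were read from RefSeq's R64, the assembly to which the reads were mapped. Of the 6692 identifiers in the counts, 6008 were found there. The study's methods do not name the gene annotation used for counting. Copies were aligned with Biopython 1.88. Genes described with values in every library were those called, the 5 highest and 5 lowest by log2 fold change, the copies of the 4 pairs that differ most, the 3 highest and 3 lowest per kilobase, and called members of the other lists; *RPS12*, *RPS25A*, *RPS28A*, *RAP1*, *IFH1*, *TSR1*, *ASC1* and *STM1* were added after their values were seen. The members and the lists were chosen with earlier results of these data known. Some members are not reported here by name, and the plots of single genes and pairs leave them out; counts and medians over the family include them.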

Additional observations from a re-analysis of the deposited data

How the results depend on the processing

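No *RPS* gene was called with limma-voom, DESeq2, median-ratio factors, library size alone, TMM without ribosomal protein genes, either other filter or the legacy fit. Over all tested genes, these fits called between 299 of 6548 (genes with at least 1 count) and 413 of 5959 (median-ratio factors). The *RPS* medians lay between -0.222 (limma-voom) and -0.144 (library size alone, which moved the median of all tested genes to 0.049). With the replicate letter as a block, 3 were called (*RPS21A* -0.51, *RPS28B* -0.38, *RPS22B* -0.37), and the number called among all 5959 tested genes was 788, against 362 without it. Over genes, the A minus B differences of the strains had r = 0.072 for all tested genes and -0.093 for the *RPS* genes. This r does not register a shift shared by a whole family, so it cannot decide whether the letters pair the samples. Library A was below library B for 55 of the 56 *RPS* genes in *sis2Δ* and for 49 in wild type. Leaving out each library in turn gave between 0 and 31 calls and between 14 and 21 pairs with separated shares, where 1 library in a strain makes separation easier. Leaving out pairs with over 50% of stretches shared also gave 10. For the 16 *RPS* genes given by the naming rule, 138 of 144 values under the 9 other alternatives kept sign and side of the threshold. *RPS21B* changed sign with library size alone (0.03), TMM without ribosomal protein genes (0.001) and genes with at least 1 count (0.002). With libraries left out in turn, signs changed for *RPS21B* (-0.185 to 0.15), *RPS10B* (-0.05 to 0.163), *RPS9B* (-0.469 to 0.003), *RPS14B* (-0.098 to 0.131), *RPS16A* (-0.175 to 0.048) and *RPS30A* (-0.191 to 0.045). Without a change of sign, the values moved over the same fits for *RPS21A* (-0.861 to -0.152), *RPS14A* (-0.728 to -0.091), *RPS3* (-0.728 to -0.041), *RPS16B* (-0.593 to -0.028), *RPS22B* (-0.536 to -0.196), *RPS28B* (-0.516 to -0.242), *RPS31* (-0.488 to -0.078), *RPS20* (-0.303 to -0.014), *RPS9A* (0.161 to 0.386) and *RPS15* (0.204 to 0.347). *ENP1*, tried after its call was seen, lay between 0.431 and 0.561 with libraries left out.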

Other observations

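The genes outside the *RPS*, *RPL* and *RPP* lists whose log2 CPM over the 4 libraries lay nearest to the mean of the *RPS* genes, by Euclidean distance of deviations from each gene's mean, were YDL218W, *HNT1*, *GAS1*, *YOP1* and *MES1*. The mean *RPS* deviation was -0.291 and 0.115 in *sis2Δ* A and B, against 0.046 and 0.13 in wild type A and B. *GAS1*, which encodes a cell wall glucanosyltransferase, had 1352 and 1779 CPM in *sis2Δ* A and B, against 1706 and 1780 CPM in wild type A and B, at a distance of 0.0199 on the log2 scale. *MES1*, which encodes the methionyl-tRNA synthetase, had 549 and 707 CPM in *sis2Δ* A and B, against 674 and 724 CPM in wild type A and B, at a distance of 0.034. These 5 genes were chosen for this pattern, so it carries no test. The distances of the *RPS* genes themselves lay between 0.0171 and 0.507, with a median of 0.157.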
